A study of Mus musculus with 12 samples.

Results

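Liver transcripts of 6 enzymes of glyoxylate and hydroxyacid metabolism were followed: the hydroxyacid oxidases Hao1 and Hao2, the aminotransferases Agxt and Agxt2, the reductase Grhpr and the hydroxyproline dehydrogenase Prodh2. The members were taken by gene symbol in the platform annotation. Each symbol had 1 probe set, so the set is 6 of the 18194 genes and 6 of the 45101 probe sets of the array. The 6 genes were chosen partly on measured values. The value on record is the genotype difference of Hao2 on normal diet, and which other values played a part is not known. The genotype differences of the 6 enzymes on normal diet are therefore given as a description, without p-values. The p-values of the other comparisons come from the fit over all genes and are not independent evidence that these genes stand out.

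Livers came from females, adult and on a B6.129 background. Both genotypes were studied: wild type (WT, Esr1+/+), and aERKO, a knockout (Esr1-/-) of the gene of estrogen receptor alpha, for which the labels name no tissue-restricted driver. Mice of each genotype were kept for 2 weeks on the NIH-31 diet, called normal here, or on a research diet with 60 kcal% fat, called high-fat. That gave 4 groups of 3 samples, and every sample had its own array. The questions are how these transcripts differ without the receptor on each diet, how they differ between the diets in each genotype, and whether the diet difference depends on the genotype.

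Glyoxylate is a short reactive acid that liver cells make from glycolate in peroxisomes and, by way of hydroxyproline, in mitochondria. Hao1 oxidises glycolate to glyoxylate, and Agxt converts glyoxylate to glycine, which keeps it from being oxidised to oxalate. Grhpr reduces glyoxylate back to glycolate and hydroxypyruvate to glycerate. Loss of AGXT or GRHPR in people causes primary hyperoxaluria, with kidney stones of calcium oxalate. Prodh2 starts the breakdown of hydroxyproline, which comes largely from collagen. Agxt2 is a mitochondrial aminotransferase that can use glyoxylate and also handles beta-aminoisobutyrate and dimethylarginines. Hao2 is a peroxisomal oxidase of longer 2-hydroxy acids and, in mouse liver, is counted among the genes with higher levels in females.

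The promoters of Hao2, Hao1 and Agxt2 are shown because Hao2 had the widest range of signal of the 6 genes and Hao1 and Agxt2 shared an order of the groups. Each sequence runs from 250 bases before to 50 bases after a RefSeq transcription start (GRCm38.p6). All 6 genes were matched by symbol in the promoter table. Capitals mark matches, on either strand, to GTTAAT (the hexamer of an HNF1 site), CAAAGTCCA (an HNF4 element) and AGGTCA (the hexamer of nuclear receptor sites).
Hao2, chr3:98893181-98893480, minus strand: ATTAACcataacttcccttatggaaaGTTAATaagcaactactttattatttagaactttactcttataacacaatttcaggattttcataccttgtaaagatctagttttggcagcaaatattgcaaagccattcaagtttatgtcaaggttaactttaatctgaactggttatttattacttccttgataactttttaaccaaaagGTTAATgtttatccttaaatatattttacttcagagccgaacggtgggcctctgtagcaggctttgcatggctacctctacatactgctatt
Hao1, chr2:134554303-134554602, minus strand: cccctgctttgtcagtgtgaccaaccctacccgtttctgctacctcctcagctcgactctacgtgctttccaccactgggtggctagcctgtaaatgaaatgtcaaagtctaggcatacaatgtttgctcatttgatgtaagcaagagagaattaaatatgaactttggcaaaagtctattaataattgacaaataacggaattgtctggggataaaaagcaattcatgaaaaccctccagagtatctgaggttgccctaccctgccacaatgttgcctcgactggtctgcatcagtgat
Agxt2, chr15:10358283-10358582, plus strand: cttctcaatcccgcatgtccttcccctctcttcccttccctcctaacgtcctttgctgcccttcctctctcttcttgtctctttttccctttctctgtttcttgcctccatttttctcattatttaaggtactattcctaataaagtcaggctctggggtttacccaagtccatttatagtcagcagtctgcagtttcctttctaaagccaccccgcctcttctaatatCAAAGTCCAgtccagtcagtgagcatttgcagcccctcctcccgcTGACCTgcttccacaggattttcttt

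The Hao2 promoter held 3 matches to GTTAAT, which occurs in 7.1% of the 32851 promoters of this length in the table. Its window lies inside the RefSeq span of the gene (98874519 to 98895376) and not at the upstream end of that span. The Agxt2 promoter held 1 match to CAAAGTCCA, found in 0.475% of all promoters, and 1 to AGGTCA, found in 16.3%. The second listed Agxt2 start lies close by, and its promoter held the same pair of matches. The Prodh2 promoter held 2 matches to GTTAAT and 1 to AGGTCA. The Hao1 promoter held 0 matches to the motifs searched. An estrogen response element (AGGTCA, any 3 bases, then TGACC, and so also a match to AGGTCA) occurred in 0.0548% of all promoters, and a STAT element (TTCNNNGAA) in 8.3%. Neither was matched in the promoters of the 6 genes. These are matches of letters within a short window and say nothing of binding.

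All 6 genes lay above the array's median signal on all 12 arrays. Esr1 checked the genotype: its brightest probe set lay between 1963 and 3930 in WT samples and between 586.1 and 885.3 in aERKO samples. The Esr1 signal was thus lower in aERKO but not absent. On every aERKO array it was still above the array median, at percentiles 80.4 to 85.1 of the array. Hepatocyte markers were bright on every array, with a mean log2 signal between 15.01 and 15.58 over 7 genes. In WT this mean was lower on high-fat diet (15.18 to 15.38) than on normal diet (15.47 to 15.58), without overlap. The median log2 difference of the 7 genes was -0.27, and 0 were called. In aERKO the diets overlapped. The part of this in the diet differences below was not tested. The mean of 9 pancreatic acinar markers was between 9.95 and 13.81 on 4 arrays (WT normal 2, WT high-fat 2 and 3, aERKO normal 1) and between 5.09 and 5.98 on the other 8. The mean of 12 skeletal muscle markers reached 10.51 on aERKO normal 1 and 8.51 on aERKO high-fat 2 and was at most 7.17 elsewhere. Kidney expresses several of the 6 enzymes as well, and the mean of 7 kidney tubule markers stayed between 5.74 and 6.75. Umod, Slc12a1 and Slc12a3 were above the array median on 0 arrays, Aqp2 on 2, Slc34a1 on 3, Kap on 9 and Slc5a2 on all 12 (signal 179 to 343). The means of 6 pericentral and 5 periportal hepatocyte markers spanned 13.84 to 14.27 and 12.78 to 13.12. The mean of 7 macrophage markers was lower in aERKO than in WT without overlap on both diets, at 9.62 to 10.14 against 10.20 to 10.33 on normal diet and 9.64 to 9.85 against 9.96 to 10.42 on high-fat diet. Their median log2 difference between genotypes was -0.34 and -0.32, and their part in the genotype differences below was not tested.

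**Figure D1:**
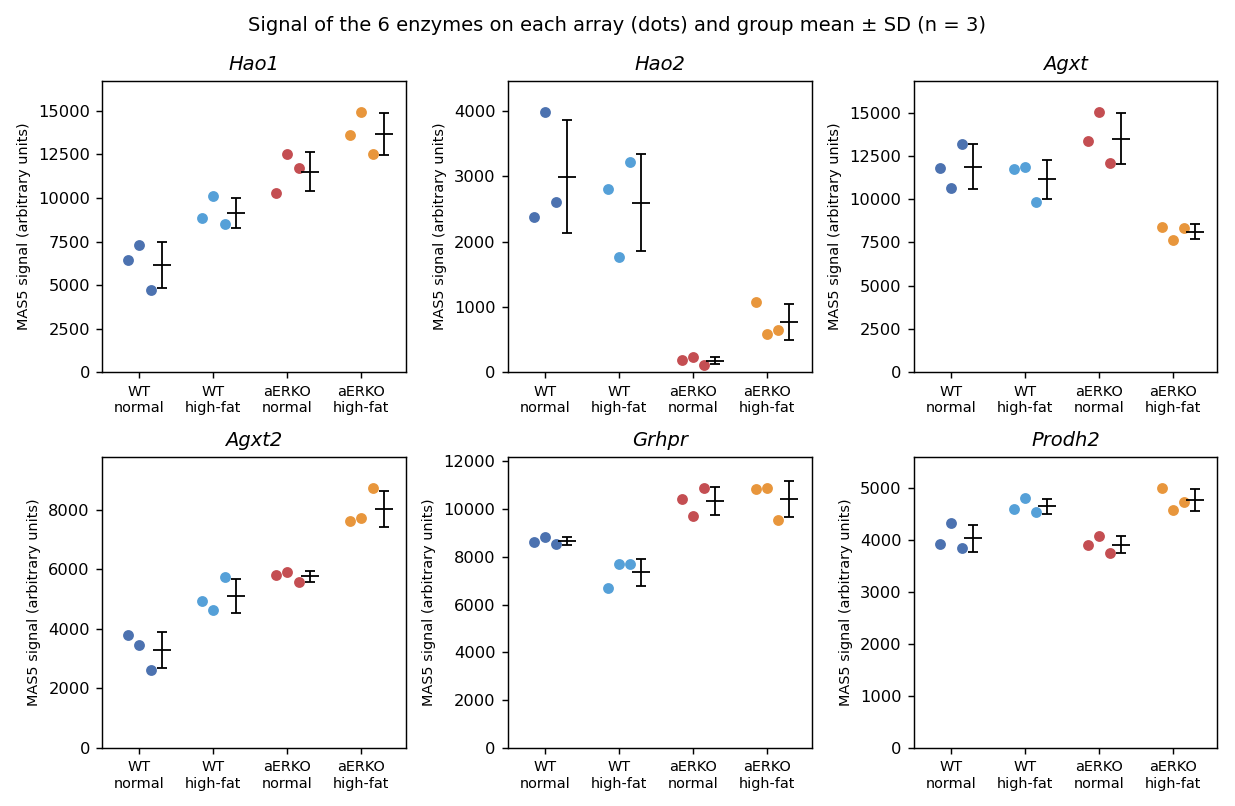
MAS5 signal (arbitrary units, linear axis from 0) of each enzyme on the 12 arrays, with dots for samples and black bars for the mean ± SD of each group (n = 3). Hao2 is low in both aERKO groups, Hao1 and Agxt2 climb from WT normal to aERKO high-fat, Agxt is lowest in aERKO high-fat, and the 6 high-fat samples of Prodh2 lie above the 6 normal samples.

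Hao2 was far lower in knockout liver than in wild type liver on both diets, and in the knockout it was higher on the high-fat diet. Its signal was 2385, 3986 and 2613 in WT normal, with a mean ± SD of 2990 ± 866 (n = 3 here and in every group below). In WT high-fat it was 2808, 1772 and 3217 (2600 ± 745). It was 187.3, 224.8 and 110.4 in aERKO normal (174 ± 58.4) and 1076, 580.9 and 644 in aERKO high-fat (767 ± 270). Every aERKO sample lay below every WT sample, and the 3 aERKO high-fat samples all lay above the 3 aERKO normal samples. The WT groups overlapped. As a share of the WT normal mean, aERKO normal stood at 5.82% and aERKO high-fat at 25.6%. In bulk tissue, fewer cells that express a gene and less RNA per cell cannot be told apart.

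On normal diet the Hao2 log2 difference, aERKO minus WT, was -4.00 ± 0.30 (SE), a value that led to the choice of the genes. On high-fat diet, in other arrays, it was -1.75 ± 0.30 (95% interval -2.39 to -1.11, adjusted p = 0.006 by limma with Benjamini-Hochberg adjustment over 12264 genes). In the knockout Hao2 was higher on high-fat diet by 2.04 ± 0.30 (adjusted p = 0.00819 by limma), or 4.11-fold. In wild type the diet difference was -0.21 ± 0.30 (-0.85 to 0.43, adjusted p = 0.9). The difference between these diet responses was 2.25 ± 0.42 (1.35 to 3.15) and did not pass (adjusted p = 0.211). The diet comparison in the knockout and the interaction use the aERKO normal arrays, which also gave the value behind the choice. Their p-values are therefore a description and not tests independent of the choice. The call on high-fat diet was lost without the 4 arrays with pancreatic transcripts (-1.90, adjusted p = 0.0607, with 1 WT high-fat array left) and with the acinar and muscle scores as covariates (-1.52, adjusted p = 0.0546). The call for diet in the knockout was lost without the intensity trend of the variance (adjusted p = 0.0671).

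Hao1, the glycolate oxidase, moved the other way from Hao2 between the genotypes. Its signal was 6457, 7282 and 4719 in WT normal (6150 ± 1310) and 8873, 10110 and 8482 in WT high-fat (9150 ± 849). It was 10310, 12530 and 11710 in aERKO normal (11500 ± 1120) and 13610, 14930 and 12520 in aERKO high-fat (13700 ± 1210). All 6 aERKO samples lay above all 6 WT samples, and the 3 WT high-fat samples lay above the 3 WT normal samples. The aERKO groups overlapped.

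On normal diet the Hao1 difference between genotypes was 0.92 ± 0.14. On high-fat diet it was 0.58 ± 0.14 (0.27 to 0.88) and missed the threshold (adjusted p = 0.0546). It passed when WT normal replicate 2 (adjusted p = 0.0384), WT normal replicate 3 (0.0109) or aERKO normal replicate 1 (0.046) was left out, although none of these enters the difference itself. It also passed with array quality weights (0.00407), with only the groups compared (0.0179), and with the filter at 6 arrays (0.0496). The diet difference was 0.59 ± 0.14 in wild type (adjusted p = 0.205) and 0.25 ± 0.14 in the knockout (adjusted p = 0.593). The interaction was -0.34 ± 0.20 (-0.77 to 0.09, adjusted p = 0.841).

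Agxt2, the mitochondrial aminotransferase, had the same order of group means as Hao1. Its signal was 3791, 3446 and 2613 in WT normal (3280 ± 606) and 4947, 4649 and 5757 in WT high-fat (5120 ± 573). It was 5819, 5920 and 5566 in aERKO normal (5770 ± 183) and 7645, 7730 and 8743 in aERKO high-fat (8040 ± 611). Within each genotype the high-fat samples lay above the normal samples, and within each diet the aERKO samples lay above the WT samples. The middle pair of groups, WT high-fat and aERKO normal, overlapped. The aERKO high-fat mean was 245% of the WT normal mean, against 222% for Hao1.

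On high-fat diet Agxt2 was higher in the knockout by 0.65 ± 0.13 (0.37 to 0.93, adjusted p = 0.0188). On normal diet the difference was 0.83 ± 0.13. The diet difference was 0.65 ± 0.13 in wild type (adjusted p = 0.0919) and 0.48 ± 0.13 in the knockout (adjusted p = 0.172), so neither passed. The interaction was -0.17 ± 0.19 (-0.57 to 0.22, adjusted p = 0.917). The call on high-fat diet was lost when WT high-fat replicate 1 (adjusted p = 0.0916), WT high-fat replicate 2 (0.0986) or aERKO high-fat replicate 1 (0.0544), 2 (0.0643) or 3 (0.0537) was left out. It was also lost with median centring (0.75, adjusted p = 0.102) and without the intensity trend (0.65, adjusted p = 0.0872). The same held without the arrays with muscle transcripts (0.68, adjusted p = 0.0759). Without the arrays with pancreatic transcripts, with 1 WT high-fat array left, the difference was 0.70 and the call was lost.

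**Figure D2:**
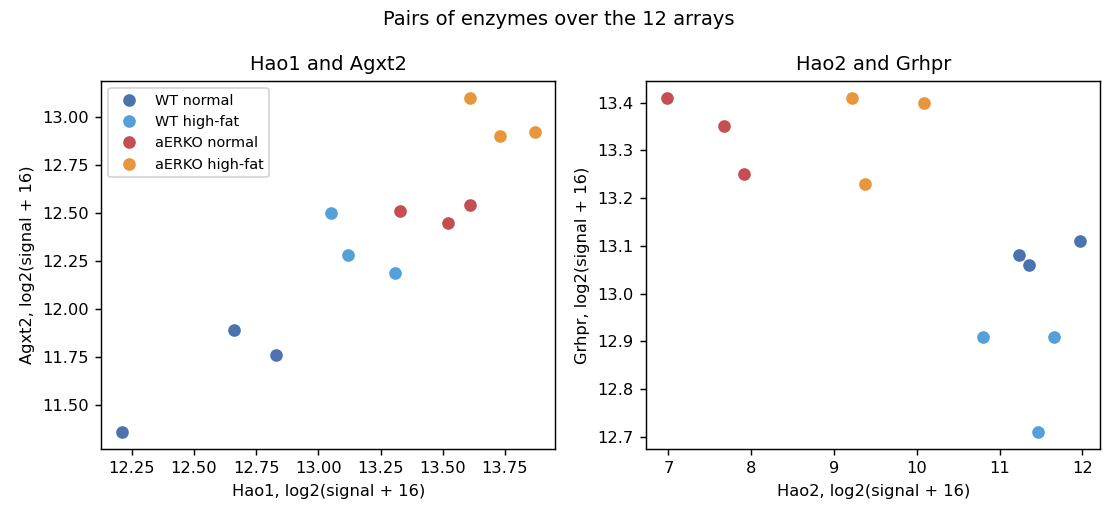
Log2(signal + 16) of Agxt2 against Hao1 (left) and of Grhpr against Hao2 (right), 1 dot per array, coloured by group. Hao1 and Agxt2 are lowest in WT normal and highest in aERKO high-fat, and on the right the 6 aERKO arrays lie at high Grhpr and low Hao2.

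Over the 12 arrays the log2 signals of Hao1 and Agxt2 had a Pearson correlation of 0.92, and of 0.36 after each group's mean was taken out. Hao2 and Grhpr stood at -0.74 and, after group means, at -0.17. These values are descriptive: the arrays fall into 4 groups, and each array's scaling is shared by all its genes.

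Agxt, which converts glyoxylate to glycine, differed from the rest in being lowest in aERKO high-fat. Its signal was 11780, 10620 and 13210 in WT normal (11900 ± 1300) and 11740, 11860 and 9837 in WT high-fat (11100 ± 1140). It was 13350, 15030 and 12090 in aERKO normal (13500 ± 1470) and 8404, 7621 and 8317 in aERKO high-fat (8110 ± 429). The 3 aERKO high-fat samples lay below the other 9 samples. WT normal overlapped both WT high-fat and aERKO normal, and the WT high-fat samples lay below the aERKO normal samples.

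In the knockout Agxt was lower on high-fat diet, by 0.73 on the log2 scale (SE 0.11, adjusted p = 0.0118 by limma), or 1.66-fold. In wild type the diet difference was -0.09 ± 0.11 (-0.33 to 0.15, adjusted p = 0.879), and the interaction was -0.64 ± 0.16 (-0.98 to -0.30, adjusted p = 0.437). On high-fat diet the difference between genotypes was -0.45 ± 0.11 (adjusted p = 0.0547), and on normal diet it was 0.18 ± 0.11. The high-fat genotype difference passed when WT normal replicate 3 (adjusted p = 0.0404) or WT high-fat replicate 3 (0.0423) was left out. It also passed with quantile normalization (0.0425), array quality weights (0.00881) and only the groups compared (0.0494). Over the alternatives the diet difference in the knockout lay between -0.80 and -0.65. The call for diet in the knockout was lost without aERKO high-fat replicate 2 (-0.68, adjusted p = 0.0856), an array with muscle transcripts. It was also lost without both arrays with muscle transcripts (0.178), without those with pancreatic transcripts (0.0707), with median centring (0.0734) and without the intensity trend (0.0831).

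Grhpr, the reductase that turns glyoxylate into glycolate, was higher in the knockout. Its signal was 8622, 8829 and 8542 in WT normal (8660 ± 148) and 6692, 7684 and 7685 in WT high-fat (7350 ± 573). It was 10410, 9723 and 10890 in aERKO normal (10300 ± 586) and 10830, 10880 and 9562 in aERKO high-fat (10400 ± 747). All 6 aERKO samples lay above all 6 WT samples. In WT the high-fat samples lay below the normal samples, and in aERKO the diets overlapped.

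On high-fat diet the Grhpr difference between genotypes was 0.50 ± 0.09 (0.31 to 0.70, adjusted p = 0.00915), or 1.42-fold, and on normal diet it was 0.25 ± 0.09. The diet difference was -0.24 ± 0.09 in wild type (adjusted p = 0.478) and 0.01 ± 0.09 in the knockout (-0.18 to 0.21, adjusted p = 0.98). The interaction was 0.25 ± 0.13 (-0.03 to 0.52, adjusted p = 0.825). The call on high-fat diet was lost when WT high-fat replicate 1 (0.44, adjusted p = 0.0611), aERKO high-fat replicate 1 (0.0549) or aERKO high-fat replicate 2 (0.0628) was left out. It was also lost with median centring (0.60, adjusted p = 0.102) and without the intensity trend (0.50, adjusted p = 0.0665). The same held without the arrays with muscle transcripts (0.47, adjusted p = 0.0828). Without the arrays with pancreatic transcripts, with 1 WT high-fat array left, the difference was 0.64 and the call was lost.

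Prodh2, the entry enzyme of hydroxyproline breakdown, separated the diets rather than the genotypes, by small steps. Its signal was 3919, 4334 and 3859 in WT normal (4040 ± 258) and 4592, 4813 and 4549 in WT high-fat (4650 ± 141). It was 3906, 4075 and 3748 in aERKO normal (3910 ± 163) and 5008, 4577 and 4731 in aERKO high-fat (4770 ± 218). The 6 high-fat samples lay between 4549 and 5008 and the 6 normal samples between 3748 and 4334. The genotypes overlapped on both diets.

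The Prodh2 diet difference was 0.21 ± 0.09 in wild type (adjusted p = 0.553) and 0.29 ± 0.09 in the knockout (adjusted p = 0.231), and neither passed. The genotype difference was -0.05 ± 0.09 on normal diet and 0.04 ± 0.09 on high-fat diet (-0.16 to 0.23, adjusted p = 0.906). The interaction was 0.08 ± 0.13 (-0.19 to 0.35, adjusted p = 0.956). Of the 6 genes Prodh2 had the narrowest range, with a highest signal 1.34 times the lowest, against 36.1 times for Hao2.

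**Figure D3:**
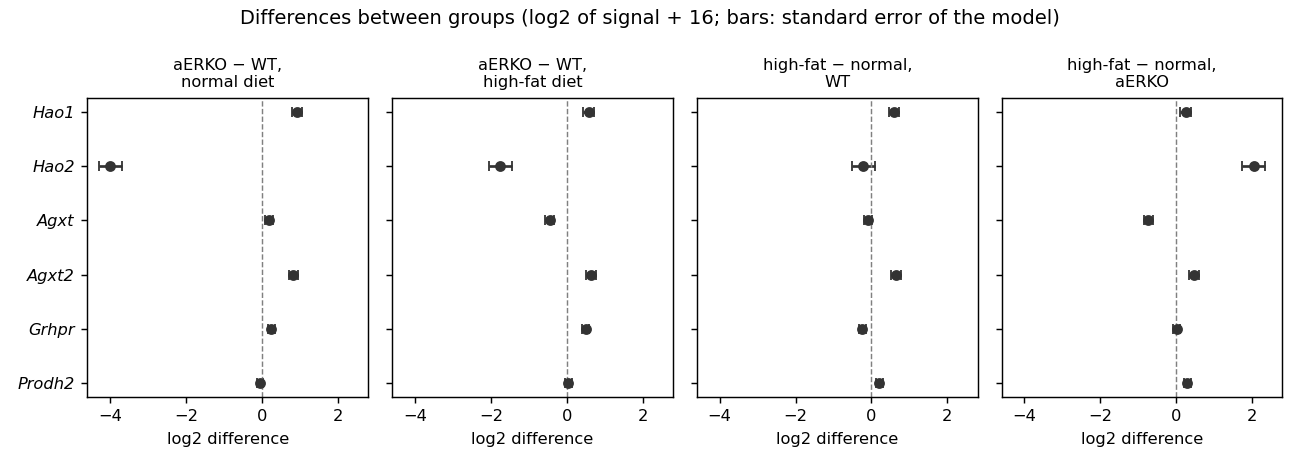
Log2 differences (log2 of signal + 16) of the 6 enzymes in the 4 comparisons between groups, with bars for the standard error of the model. Hao2 lies at -4.00 and -1.75 for genotype on the normal and the high-fat diet and at 2.04 for diet in the knockout, and the other 5 enzymes stay within 1 unit of 0 in all 4 panels.

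Over the set, genes with an adjusted p below 0.05 were counted as called. On high-fat diet 3 of the 6 were called for genotype, Agxt2 and Grhpr higher and Hao2 lower, beside 1.98% of all genes (1.1% higher and 0.881% lower). Their median log2 difference was 0.270, against -0.033 for all genes. The count ranged from 1 to 5 when single arrays were left out. In the fit with all arrays 243 of the 12264 genes were called. The count of members was 5 without WT normal replicate 3, where 308 of all genes were called. It was 1 without WT high-fat replicate 1 (122 of all genes), aERKO high-fat replicate 1 (122) or aERKO high-fat replicate 2 (108). It was 0 without the 4 arrays with pancreatic transcripts.

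For diet in the knockout 2 of the 6 were called, Hao2 higher and Agxt lower, beside 0.481% of all genes (0.334% higher and 0.147% lower), with a median of 0.268 against 0.017 for all genes. That count was 1 without aERKO high-fat replicate 2, where 13 of all genes were called, against 59 with all arrays. For diet in wild type 0 of the 6 were called by limma, beside 0.0734% of all genes (0.0163% higher and 0.0571% lower). At an unadjusted p under 0.05 there were 4 (Hao1, Agxt2, Grhpr and Prodh2), beside 8.28% of all genes. For the interaction 0 of the 6 were called, beside 0% of all genes, and at an unadjusted p under 0.05 there were 2, Hao2 and Agxt, beside 5.94%. On normal diet 3 of the 6 were called for genotype beside 1.22% of all genes (0.587% higher and 0.636% lower), a count that carries no weight because that comparison was used in the choice. The genotype comparisons share no arrays, whereas the diet and genotype comparisons share groups, so their values are not independent. The diet comparisons and the interaction use the normal diet arrays that gave the value behind the choice, so their counts are a description. Hao2 is among the genes counted for diet in the knockout and for the interaction.

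Of 65 other genes of the connected pathways, 58 were measured above the filter. The share called for genotype was 1.72% on high-fat diet, beside 1.98% of all genes, and 5.17% on normal diet, beside 1.22%. On high-fat diet 1 was called for genotype, the mitochondrial D-lactate dehydrogenase Ldhd. Its signal was 1247, 1556 and 1391 in WT high-fat and 2551, 2980 and 2623 in aERKO high-fat, with no overlap and a log2 difference of 0.95 ± 0.13 (adjusted p = 0.00144). On normal diet it was 1558, 1420 and 1374 in WT and 3076, 2234 and 2483 in aERKO (0.82 ± 0.13, adjusted p = 0.00532). Its second probe set differed in the same direction, by 1.02 and 0.51.

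On normal diet Hacl1, a peroxisomal lyase that shortens 2-hydroxy fatty acids, was lower in the knockout (-0.78 ± 0.17, adjusted p = 0.0395). Its signal was 19460, 18140 and 19910 in WT normal and 10020, 9915 and 14070 in aERKO normal, without overlap. Kyat3, an aminotransferase of kynurenine and glutamine, was lower too (-0.47 ± 0.10, adjusted p = 0.0357). Its signal was 12170, 12870 and 12020 in WT normal and 8305, 8754 and 9641 in aERKO normal, again without overlap. On high-fat diet Hacl1 stood at -0.06 ± 0.17 (adjusted p = 0.916) and Kyat3 at -0.21 ± 0.10 (adjusted p = 0.346).

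By group, the 2-hydroxyacid, glycolate and glycerate list (13 measured) held 1 gene called higher on high-fat diet, and 1 higher and 1 lower on normal diet. The other aminotransferases (8 measured) held 1 gene called lower on normal diet. The lists for proline and hydroxyproline breakdown (6), glycine, serine and one-carbon donors (14), beta-aminoisobutyrate, beta-alanine and dimethylarginine (8), oxalate and sulfate transport (2) and the peroxisome (7) held 0 called genes for genotype. For either diet comparison and for the interaction, 0 of the 58 were called by limma. The shares over all genes were 0.0734% for diet in wild type, 0.481% for diet in the knockout and 0% for the interaction. The list medians for genotype on high-fat diet lay at 0.155 for proline and hydroxyproline breakdown, 0.167 for the hydroxyacid list, -0.023 for glycine and serine, and 0.137 for the peroxisome. They lay at -0.059 for the other aminotransferases, -0.035 for the beta-aminoisobutyrate list and -0.449 for oxalate and sulfate transport. The 58 genes together had a median of 0.056, against -0.033 for all genes. In the hydroxyproline branch after Prodh2, Hoga1, the aldolase that releases glyoxylate, was named outside the rule for naming genes, after its values were seen. It differed by 0.16 ± 0.11 for genotype on high-fat diet (adjusted p = 0.537). Its diet difference in the knockout was 0.29 ± 0.11 (adjusted p = 0.351).

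**Figure D4:**
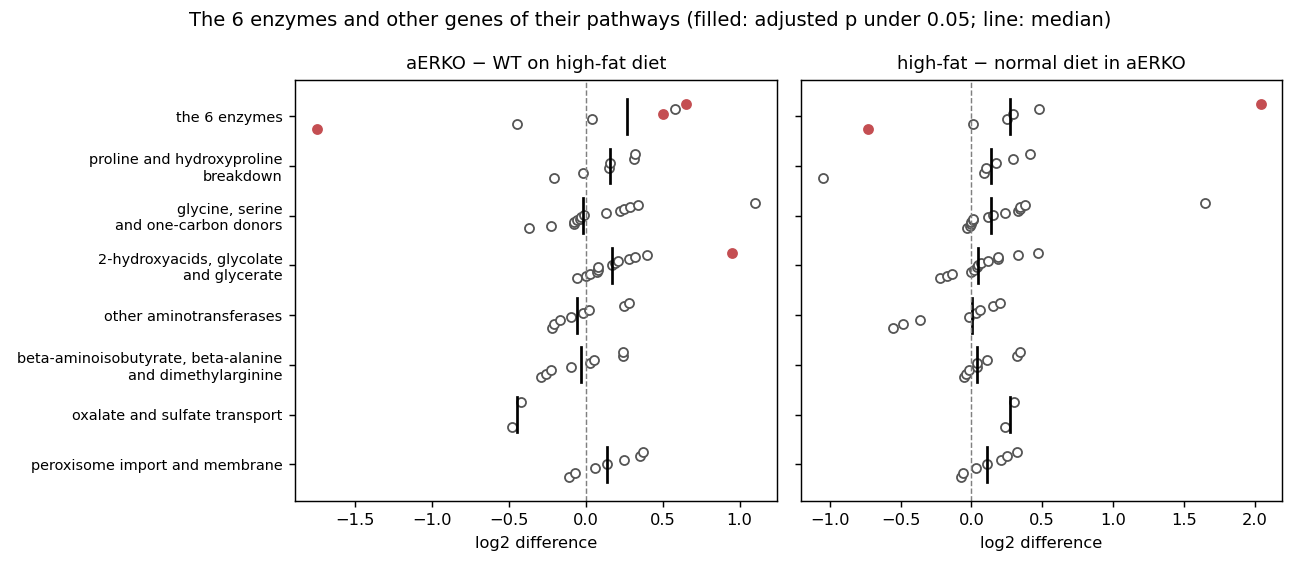
Log2 differences of the 6 enzymes and of the genes of 7 connected lists, for genotype on high-fat diet (left) and for diet in the knockout (right), 1 dot per gene, filled where the adjusted p was under 0.05, with a line at each list's median. Ldhd, at 0.95 on the left, is the 1 filled dot outside the 6 enzymes.

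Genes whose log2 signals followed each enzyme most closely over the 12 arrays were ranked by Pearson correlation among the 12264 genes, as a description. For Hao2 they were Slc22a27 (r = 0.979), Tafa2 (0.962) and Hamp2 (0.960). The signal of Slc22a27 averaged 1070 ± 284 in WT normal and 121 ± 40 in aERKO normal, and 1290 ± 20.4 in WT high-fat and 490 ± 97.2 in aERKO high-fat. It therefore had the same pattern of a low aERKO normal level and a partly higher aERKO high-fat level. For Hao1 they were C1galt1c1 (0.973), Akr1c19 (0.953) and Nipsnap1 (0.949), and for Agxt2 Kmo (0.939), Dynlt3 (0.934) and Dnajb6 (0.931). Kmo averaged 5040 ± 641 in WT normal and 9200 ± 249 in aERKO high-fat.

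For Agxt the closest were Cbs (0.909), Atp10d (0.904) and Dtnbp1 (0.898), and Cbs averaged 4810 ± 459 in aERKO normal and 3240 ± 200 in aERKO high-fat. For Grhpr they were Creld2 (0.959), Mmgt1 (0.930) and Abcg2 (0.924). For Prodh2 they were Dcxr (0.914), Col1a2 (0.913) and Aldh1b1 (0.909). Col1a2 averaged 426 ± 49.3 and 598 ± 32.5 in WT on normal and high-fat diet, and 398 ± 62.1 and 667 ± 76.7 in aERKO. These are the highest of 12264 values per enzyme, over arrays that fall into 4 groups.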

How the data were processed

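Total liver RNA of 12 samples was hybridised to 1-colour Affymetrix 3' expression arrays, 1 per sample. The authors deposited linear MAS5 signals, an intensity for each probe set. Expression Console and MAS5 are listed, without versions, in the submitters' processing notes. Each array's mean without the lowest and highest 2% of values was 500, so the arrays had been scaled before deposit. MAS5 values near background scatter widely. Detection flags were not used here. The number of arrays limits the precision.

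Probe sets with 1 gene symbol (34958 of 45101) were named through the platform annotation, updated through Entrez identifiers. The brightest probe set of each of 18194 genes was kept, and 12264 genes above the array median on at least 3 arrays were tested. Values were log2(signal + 16). One model with a mean per group was fitted to all 12 arrays with limma 3.58.1 in R 4.3.3 (intensity trend, 8 residual degrees of freedom). Tests were two-sided, with Benjamini-Hochberg adjustment over 12264 genes. The fit was run on simulated data with independent normal noise for each gene. That simulation held no shared array effects and no transcripts of other tissues, so it cannot speak to those. Whether replicates were separate animals is not in the labels, so the p-values reflect only how these samples spread, which may be technical. Same-numbered samples were not paired: 4 of 18 pairs deviated together (r over 0.1). Members and lists were chosen with earlier results of these data known. Genes other than the members are named if called in a pathway list, or as the 3 most correlated with a member. Alternatives are given in the closing section. Promoters come from RefSeq (GRCm38.p6).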

Additional observations from a re-analysis of the deposited data

Results flagged for a closer look

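The Agxt genotype difference ran in opposite directions on the diets. Each of the 3 aERKO normal samples (13350, 15030 and 12090) lay above the WT normal mean of 11900, and each of the 3 aERKO high-fat samples (8404, 7621 and 8317) lay below the WT high-fat mean of 11100. The log2 difference was 0.18 ± 0.11 on normal diet and -0.45 ± 0.11 on high-fat diet. The test of the difference between them, the interaction, gave -0.64 ± 0.16 and did not pass (adjusted p = 0.437 by limma, between 0.12 and 0.998 over the alternatives). The normal diet ranges overlapped. Muscle markers were raised on aERKO normal replicate 1 and aERKO high-fat replicate 2, and without those arrays the differences were 0.19 on normal diet and -0.41 on high-fat diet (interaction -0.60, adjusted p = 0.991). With the acinar and muscle scores as covariates they were 0.12 and -0.56 (interaction -0.69, adjusted p = 0.398).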

How the results depend on the processing

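The alternatives changed the constant before the log, the filter, the probe set rule, the scaling, the variance model, the samples fitted and the arrays used, and 1 of them, leaving out the arrays with muscle transcripts, was chosen after seeing the data. No called difference of a member changed sign under any of them. For genotype on high-fat diet the number of members called was 3, and became 1 with median centring, without the intensity trend and without the arrays with muscle transcripts, 5 with array quality weights and with only the groups compared, and 0 without the arrays with pancreatic transcripts. Over all genes 116 were called with median centring, 116 without the intensity trend and 119 without the arrays with muscle transcripts. The all-gene number was 944 with array quality weights and 277 with only the groups compared, against 243 as reported. Leaving out single samples gave 1 to 5 members called. For diet in the knockout the number was 2, and became 1 with median centring and without the arrays with pancreatic or with muscle transcripts, and 0 without the intensity trend. Over all genes 22 were called with median centring, 16 without the arrays with muscle transcripts and 12 without the intensity trend, against 59 as reported. Leaving out single samples gave 1 to 2 members called. For genotype on normal diet it stayed at 2 to 3, and for diet in wild type and the interaction at 0. With the replicate number as a block the counts were 3, 4, 0, 2 and 0 for genotype on normal and high-fat diet, diet in wild type and knockout, and the interaction, where Hao1 on high-fat diet passed (adjusted p = 0.0237). Over all genes the number called ranged from 71 to 172 (150 as reported) and from 60 to 944 (243) for genotype on normal and high-fat diet, from 0 to 21 (9) and from 12 to 187 (59) for diet in wild type and knockout, and from 0 to 2 (0) for the interaction. Median centring moved the median of all genes by 0.142 and 0.101 for genotype on normal and high-fat diet, and the share of calls that were higher from 48.0% to 59.6% for genotype on normal diet. For diet in wild type 2 of 9 calls were higher, and with median centring 0 of 1, too few to compare. Where not stated, the cause of a change was not tested.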

Other observations

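Phgdh, the first enzyme of serine synthesis, was singled out after its values were seen, as the pathway gene with the widest interaction. Its brightest probe set read 202.3, 321.9 and 494.6 in WT normal. In WT high-fat it read 131, 55.21 and 292.3, and it read 92.39, 92.3 and 70.99 in aERKO normal and 363.4, 271.9 and 275.9 in aERKO high-fat. The interaction was 2.84 ± 0.60 and did not pass (adjusted p = 0.28). Of its 4 probe sets the brightest lay above the array median on 10 arrays and the others on 5, 4 and 1. For genotype on normal diet the 3 that could be fitted gave -1.73, -0.70 and 0.28. In the same order they gave 1.10, 0.13 and 0.14 on high-fat diet. From normal to high-fat diet the genotype difference thus rose most in the brightest probe set. It rose less in the next (-0.70 to 0.13) and fell slightly in the last (0.28 to 0.14).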
